A study of Homo sapiens with 4 samples.

Results

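The genes described here encode BRD2 and BRD3, which read acetylated histones, and the histone acetyltransferases EP300, CREBBP, KAT2A, KAT2B, KAT6A, KAT6B and KAT7, which write them. They were grouped by function and are 9 of the 19666 protein-coding genes that could be given a strand. H3K27Ac was profiled by ChIPmentation, in which a transposase adds the sequencing adapters to immunoprecipitated chromatin, in the human AML line MOLM13, which carries a rearrangement of MLL1 (MLL1-r). There was 1 control library, with no treatment in its label and a DMSO arm named in the treatment description, and 1 library of cells exposed to 500 nM of SNDX-50469, a menin inhibitor, for 16 h. Both came from 1 unmodified cell line. The study also combined menin inhibition with inhibitors of BET proteins, CBP/p300 and the MOZ acetyltransferase, and the comparison here asks what SNDX-50469 alone left of the mark on the genes of these proteins.

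Acetylation of lysine 27 on histone H3 marks active promoters and enhancers. CREBBP (CBP) and EP300 (p300) are the main enzymes that place it, and BET proteins bind acetylated histones through paired bromodomains and link them to transcription. KAT2A (GCN5) and KAT2B (PCAF) act in the SAGA and ATAC complexes, mainly on lysine 9 of the same histone, while KAT6A (MOZ), KAT6B (MORF) and KAT7 (HBO1) are MYST enzymes held by BRPF or JADE scaffolds. Menin tethers MLL1 and its fusion proteins to chromatin in MLL1-r leukaemia.

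The promoters of 4 of the genes are printed as examples of unlike peak coverage. They are the 250 bases before the outermost annotated 5′ end in RefSeq (GRCh38.p14), read in the direction of transcription. BRD2 (chr6:32968344-32968593, plus strand) and EP300 (chr22:41092342-41092591, plus strand) were covered by a peak over all 250 bases in both libraries. KAT2B (chr3:20040196-20040445, plus strand) was covered over all 250 bases in control and over 0 bases after SNDX-50469. KAT2A (chr17:42121368-42121617, minus strand) had 0 of its bases covered in either library. Capitals mark the GC box GGGCGG or its reverse complement CCGCCC, searched on both strands, which 55.8% of the 15843 promoters in the table hold.
BRD2: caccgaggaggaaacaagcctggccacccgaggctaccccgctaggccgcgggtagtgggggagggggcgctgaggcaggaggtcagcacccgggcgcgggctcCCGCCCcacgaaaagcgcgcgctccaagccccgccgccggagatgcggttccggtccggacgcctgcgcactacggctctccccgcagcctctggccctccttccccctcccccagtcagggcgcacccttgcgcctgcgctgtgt
EP300: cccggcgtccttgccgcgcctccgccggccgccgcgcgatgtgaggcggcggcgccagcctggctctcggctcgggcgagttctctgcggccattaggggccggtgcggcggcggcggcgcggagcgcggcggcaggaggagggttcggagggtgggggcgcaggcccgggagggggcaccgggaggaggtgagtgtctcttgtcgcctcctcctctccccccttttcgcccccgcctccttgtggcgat
KAT2A: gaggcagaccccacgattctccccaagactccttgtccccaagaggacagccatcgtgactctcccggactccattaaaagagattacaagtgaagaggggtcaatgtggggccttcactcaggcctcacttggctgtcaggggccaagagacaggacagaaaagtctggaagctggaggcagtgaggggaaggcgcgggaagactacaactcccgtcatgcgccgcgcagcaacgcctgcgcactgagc
KAT2B: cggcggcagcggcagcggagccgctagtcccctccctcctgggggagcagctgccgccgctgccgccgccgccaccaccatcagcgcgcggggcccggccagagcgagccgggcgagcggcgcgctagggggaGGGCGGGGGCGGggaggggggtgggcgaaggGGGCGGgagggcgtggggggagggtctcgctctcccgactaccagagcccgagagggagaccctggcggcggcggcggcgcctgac
GC content was 74.0% at BRD2, 76.8% at EP300, 80.8% at KAT2B and 58.8% at KAT2A, against a median of 62.0% and quartiles of 52.8% and 70.0% over the table. The ratio of observed to expected CpG was 0.80, 0.96 and 0.84 at BRD2, EP300 and KAT2B and 0.51 at KAT2A, with a median of 0.73 over the table. The covered promoters of BRD2 and KAT2B held 1 and 3 GC boxes, and the other two printed promoters held 0. A GC-rich sequence was thus shared by a promoter that kept its peak and a promoter that did not, and a motif match describes letters only.

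Every peak carries the fold over background and the −log10 p and −log10 q that the authors' caller gave it, on the scale of its own library. The control list held 245875 peaks over 224 Mb and the SNDX-50469 list 54061 peaks over 29.4 Mb. The weakest listed peak had a fold of 2.66 and a −log10 p of 2.68 in control, against 3.46 and 3.93 after treatment, so a weak peak could enter the control list and not the other. The files give no read totals, depth is known only through these limits, and less signal and a stricter list cannot be told apart below them. A kept share is the percentage of the control covered length that the SNDX-50469 list covered too. The cell label was compared with marker genes: 6 of 6 myeloid markers had control peaks near the 5′ end (5 kb on each side), over 59.7% to 100% of that window, while HBB, ALB and EPCAM had none. Of other markers of unrelated cells, GATA1, CD3E and COL1A1 had 3.24% to 23.5% covered, and the B-cell gene CD79A 87.9%.

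After SNDX-50469, H3K27Ac peaks remained at the 5′ ends of the BET genes and of EP300, CREBBP, KAT6A and KAT7, and none at the control positions of KAT2A, KAT2B and KAT6B. Over all 9 genes, the windows of 5 kb on each side of the 5′ end held 40797 bp of control peaks and 16359 bp of peaks after treatment. Of the control length, 36.5% was kept near the 5′ ends, against 20.4% summed over all protein-coding genes. Without BRD2, which had the longest coverage there in both lists, 30.0% was kept. Over the rest of the genes and 5 kb on both sides, 86219 bp in control became 3902 bp, of which 854 bp lay at control positions, or 0.991%, against 7.88% over all genes. At least 1 control position near the 5′ end was kept at 6 of the 9 genes, where 50.8% of 13248 genes with such a peak kept any. At a −log10 q of at least 5 in both lists this held at 2 of 8 genes, against 13.6% of all genes. With control peaks held to the smallest −log10 p of the treated list it held at 6 of 9, against 61.8%. With the control list shortened to the same total length it held at 6 of 7, against 92.9%. By peaks, 8 of 31 control peaks near the 5′ ends overlapped a treated peak within that window (25.8%, Wilson 95% interval 13.7 to 43.2) and 6 of 205 did so within the rest (2.93%, 1.35 to 6.24), where 2 peaks, at BRD2 and BRD3, reach into both and are counted in each. These intervals hold counting error alone and treat neighbouring peaks as independent, which they are not. Each condition has 1 library, so that no difference could be set against replicate error, and no p-value is given.

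**Figure D1:**
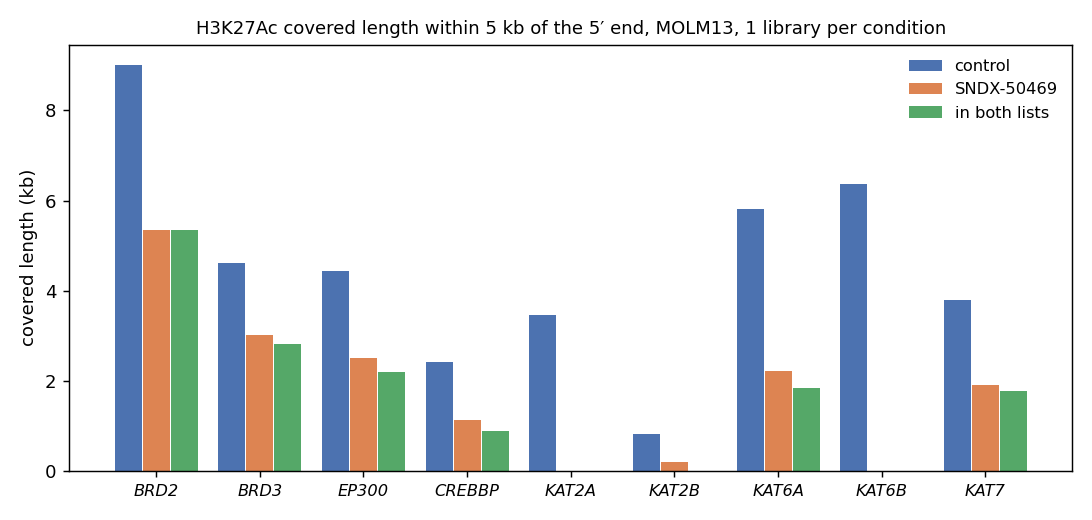
Covered length in kb within 5 kb of the 5′ end of each gene in the control list (blue), the SNDX-50469 list (orange) and both lists (green), with 1 library per condition and no error bars. BRD2 had the longest coverage in both lists (9009 and 5354 bp), and KAT2A, KAT2B and KAT6B have no green bar.

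The covered length over gene and flanks was below 50% of control at 9 of the 9 genes, as it was at 93.7% of 15491 protein-coding genes. This count rests on the weak peaks of the control list. At a −log10 q of at least 5 in both lists, 6 of the 8 genes that still had a control peak were below 50%, against 93.9% of all genes. When control peaks were held to the smallest −log10 p of the treated list, 5 of the 9 genes stayed below 50%, against 83.5% of all genes. When the control list was shortened to the same total length, 1 of the 7 genes that still had a control peak did, against 38.4% of all genes. That shortened list kept 3632 peaks with a −log10 p of at least 10.03, while the treated list still reached down to 3.93, so their limits were unlike. KAT6B was below 50% under every alternative run, with 0 bp after treatment in each. At a −log10 q of at least 5 and at equal length, only a control peak of 269 bp stood for KAT6B. Leaving out KAT6A could not change its value.

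BRD2, a ubiquitous BET reader, had the widest peak at a 5′ end (chr6:32968594-32981505, plus strand). In control 2 peaks covered 9009 bp within 5 kb of its 5′ end, or 90.1% of that window, and after SNDX-50469 1 peak covered 5354 bp, or 53.5%. The control peak ran from 3725 bp upstream to 6149 bp downstream with a fold of 10.48. The treated peak ran from 739 bp upstream to 4614 bp downstream with a fold of 11.52, each fold on the scale of its own library. It lay wholly inside the control peak and still spanned all 4 annotated start sites, so that 59.4% of the 5′ length was kept. The 8 control peaks that reached into the rest of BRD2 covered 5876 bp of it, and 0 bp was covered there after treatment.

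BRD3 (chr9:134030305-134068548, minus strand), the other BET reader here, had 4 control peaks over 4623 bp near its 5′ end and 2 peaks over 3027 bp after treatment, with 61.1% kept. Its main peak narrowed from 3420 bp to 2712 bp, and its fold was 7.98 in control and 5.12 after treatment, each in its own list. Both annotated starts were covered in both libraries. Over the rest of BRD3, 12 control peaks covered 9378 bp and 1 treated peak covered 205 bp, or 2.19% kept. A control peak of 3751 bp that began 4391 bp downstream of the start was reduced to these 205 bp. The 5′ kept shares of the BET pair were 59.4% and 61.1%.

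**Figure D2:**
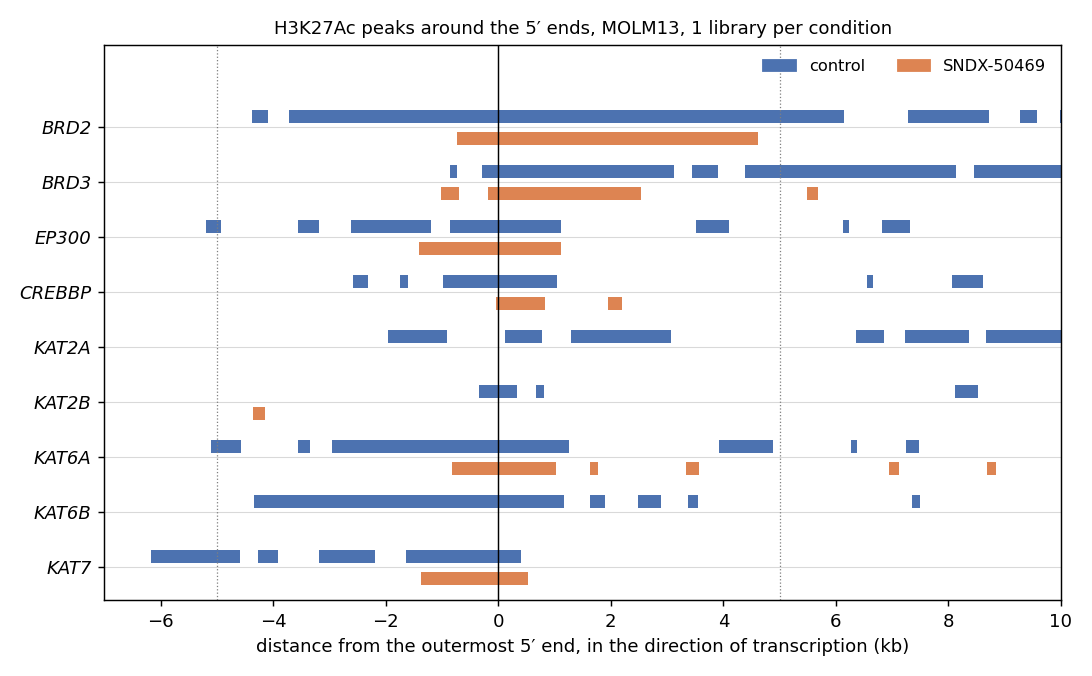
Peaks of the control list (blue) and the SNDX-50469 list (orange) against the distance in kb from the outermost 5′ end, in the direction of transcription, with dotted lines at 5 kb on each side. Peaks beyond 5 kb upstream are drawn only where they reach into the window. The treated peaks of BRD2, BRD3, EP300, CREBBP, KAT6A and KAT7 span the 5′ end, and the only treated peak at KAT2B lies over 4 kb upstream.

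EP300, which encodes the acetyltransferase p300 (chr22:41092592-41180077, plus strand), held the control peak with the highest fold of the 9 genes, 11.03 over 1972 bp. After treatment a peak of 2517 bp with a fold of 8.50 stood in its place. Both ended at the same base, 1110 bp downstream of the 5′ end, and the treated peak began farther upstream, at 1406 bp against 861 bp. A second control peak of 1424 bp with a fold of 4.64 lay upstream of the first and shared 215 bp with the treated peak. Control coverage thus also reached farther upstream than the treated peak. In all, 5 control peaks covered 4441 bp near the 5′ end and 49.2% of that was kept. Over the rest of EP300, 26 control peaks covered 7879 bp, and 0 bp was covered after treatment. At an equal −log10 q of at least 5 in both lists, EP300 was the only one of the 8 genes with a control peak whose covered length was higher after treatment, at 2517 against 1972 bp. The control peak of 1424 bp, with a −log10 q of 4.75, fell just below that limit and was not counted.

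CREBBP (chr16:3725054-3880713, minus strand), which encodes the closely related enzyme CBP, had a weaker peak at its 5′ end. In control 3 peaks covered 2421 bp there, the strongest with a width of 2033 bp and a fold of 6.22. After treatment 2 peaks covered 1136 bp, of which 884 bp lay inside that control peak, with a fold of 4.57, and 36.5% was kept. The kept stretch spanned both annotated starts. Over the rest of CREBBP, 42 control peaks covered 17064 bp, and 2 treated peaks covered 232 bp at positions that were not covered in control. EP300 and CREBBP were alike outside the 5′ end, with 0 bp kept over the rest of either gene.

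KAT2A and KAT2B were the pair without kept positions. KAT2A (chr17:42113111-42121367, minus strand), the GCN5 enzyme, had 3 control peaks over 3471 bp near the 5′ end and 4 over 4879 bp of the rest, and no treated peak over either. Its strongest control peak, 649 bp with a fold of 5.07, lay from 123 to 771 bp downstream, so that the annotated 5′ end was not covered in control. The 5′ end of HSPB9, 1437 bp away, lies in the same window, and peaks there cannot be assigned to either gene. The 5′ end of DHX58 lies 8653 bp from that of KAT2A, and the strongest control peak of the rest, 2441 bp from 8673 to 11113 bp downstream, lies beside it and cannot be assigned to KAT2A either. KAT2B (chr3:20040446-20154404, plus strand), the PCAF enzyme, had 830 bp of control coverage near the 5′ end, the lowest of the 9 genes, and 2160 bp over the rest. Its control peak was centred on the 5′ end, from 342 bp upstream to 342 bp downstream, with a fold of 4.39. After treatment 1 peak of 208 bp lay in the window, at the smallest fold of its list (3.46) and 4152 to 4359 bp upstream, where control had none.

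KAT6A, KAT6B and KAT7 differed more in their 5′ kept share than the members of any pair above. KAT6A (chr8:41929479-42051987, minus strand), the MOZ enzyme, had 4 control peaks over 5822 bp near the 5′ end and 3 treated peaks over 2214 bp, with 31.8% kept. Its main peak was 4211 bp wide with a fold of 7.55 in control and 1851 bp wide with a fold of 4.45 after treatment. Over the rest of KAT6A, 60 control peaks covered 25861 bp and 14 treated peaks covered 3358 bp, but 2709 bp of these lay outside control peaks, and 2.51% was kept. Chromosome 8 held 10.5% of control peaks and 41.9% of treated peaks, and its genes kept 34.8% of the summed 5′ length and 18.4% of the rest. By gene, the median kept share on this chromosome was 23.2% near the 5′ end (quartiles 2.77% and 45.2%), with KAT6A between the quartiles, and 9.61% over the rest (2.83% and 19.9%), with KAT6A below the lower quartile. The part of this chromosome-wide excess in the treated peaks of KAT6A was not tested. Without KAT6A, the 8 other genes kept 37.3% near the 5′ ends and 0.340% over the rest.

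KAT6B (chr10:74824936-75032624, plus strand), which encodes MORF, had no peak after treatment anywhere in the gene or its flanks. In control 4 peaks covered 6376 bp near the 5′ end and 42 peaks covered 11776 bp of the rest. A control peak of 5518 bp with a fold of 4.65 spanned the outermost 5′ end. The strongest control peak was 269 bp wide with a fold of 8.85 and a −log10 q of 13.39 and lay over a start site 1634 to 1902 bp downstream. None of the 4 annotated starts was covered after treatment. The narrow peak was unusual for its strength, since of the 1382 genes whose 5′ end held a control peak with a −log10 q of at least 10, only 1 of the 1342 that kept a position and 1 of the 40 that kept none, KAT6B itself, had a strongest peak of 269 bp or less. The median width was 4635 bp in the former and 3266 bp in the latter.

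KAT7 (chr17:49788681-49835026, plus strand), the HBO1 enzyme, had 4 control peaks over 3804 bp near the 5′ end and 1 treated peak over 1903 bp, with 46.8% kept. The control peak over the 5′ end was 2035 bp wide with a fold of 7.33 and the treated peak 1903 bp wide with a fold of 4.79. They shared 1781 bp, and both lay mostly upstream. The 5′ end of FAM117A, 429 bp away, shares this window, so the peak cannot be assigned to KAT7 alone. Over the rest of KAT7, 3 control peaks covered 1346 bp and 1 treated peak covered 107 bp at other positions. KAT7 had the smallest coverage outside the 5′ end, and on the log2 scale its covered length over gene and flanks fell by 1.36, against 2.51 at KAT6A.

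The log2 ratio of covered length over gene and flanks, SNDX-50469 over control, ordered the genes as KAT7 (−1.36), BRD2 (−1.48), BRD3 (−2.12), EP300 (−2.29), KAT6A (−2.51), CREBBP (−3.83) and KAT2B (−3.85), with KAT2A and KAT6B at 0 bp after treatment and without a ratio. With control peaks held to the smallest −log10 p of the treated list, the covered length after treatment was 97.6% of control at KAT6A, 98.8% at KAT7, 59.3% at EP300 and 52.7% at BRD2, and 44.7% at CREBBP, 28.9% at BRD3 and 25.1% at KAT2B. These values count treated bases at any position, and at KAT6A 3072 of 5572 bp lay outside the control peaks of the full list. KAT2A and KAT6B still had 4224 and 8545 bp of control peaks above that limit and 0 bp after treatment. The order of the other genes therefore depended on how the weak control peaks were counted.

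**Figure D3:**
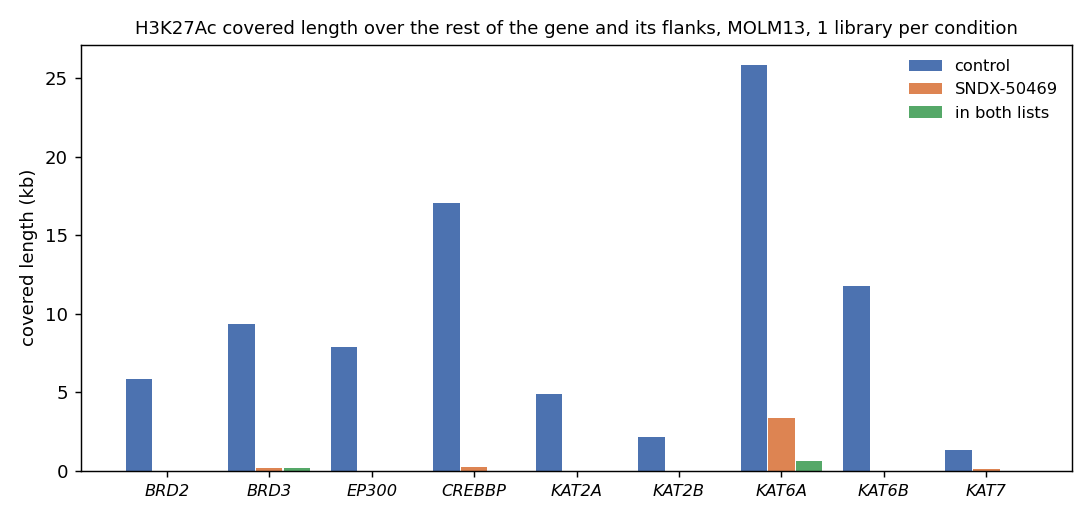
Covered length in kb over each gene with its flanks of 5 kb, leaving out 5 kb around the 5′ end, in the control list (blue), the SNDX-50469 list (orange) and both lists (green), with 1 library per condition. Control lengths ran from 1346 bp at KAT7 to 25861 bp at KAT6A, and only KAT6A had over 1 kb after treatment.

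Outside the 5′ ends, 7 of the 9 genes kept 0 bp of the control length, against 68.0% of 13511 protein-coding genes, and BRD3 and KAT6A were the exceptions. The kept share near the 5′ end was above that over the rest at 6 of the 9 genes, against 48.1% of 11268 genes with control peaks in both. The other three kept nothing in either. The control peaks in the rest of these genes were weak: 16 of 205 reached the smallest −log10 p of the treated list, and 1 of those 16, at BRD3, overlapped a treated peak there (6.25%, Wilson 95% interval 1.11 to 28.3). Near the 5′ ends 17 of 31 reached it and 7 of the 17 overlapped there (41.2%, 21.6 to 64.0). The other control peaks outside the 5′ ends had a −log10 p below that of any listed treated peak, each on the scale of its own library.

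Over all genes, kept 5′ ends were more frequent where the control peak was stronger. Where the strongest control peak near the 5′ end had a −log10 q under 3, 8.58% of 4206 genes kept a position, and none of the 9 genes fell there. From 3 to 5 the share was 42.8%, with KAT2B (3.96) keeping none. From 5 to 10 it was 81.7%, with CREBBP (8.13) keeping its 5′ end and KAT2A (5.39) not. At 10 or more it was 97.1% of 1382 genes, and 5 of 6 members of the families described here kept a position, KAT6B (13.39) keeping none. KAT6B stood in this class through its narrow peak of 269 bp alone, since the peak of 5518 bp over its outermost 5′ end had a −log10 q of 4.82, within the class where 42.8% of genes kept a position. The median gene of this last group kept 41.7% of its 5′ length, with quartiles of 25.8% and 57.0%. BRD2 and BRD3 stood above the upper quartile, at 59.4% and 61.1%, EP300, KAT7 and KAT6A lay between the quartiles, and KAT6B was at 0%. In the class from 5 to 10, CREBBP at 36.5% lay just above the upper quartile of 36.0%. KAT2A at 0% lay below the lower quartile of 5.69% in that class.

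**Figure D4:**
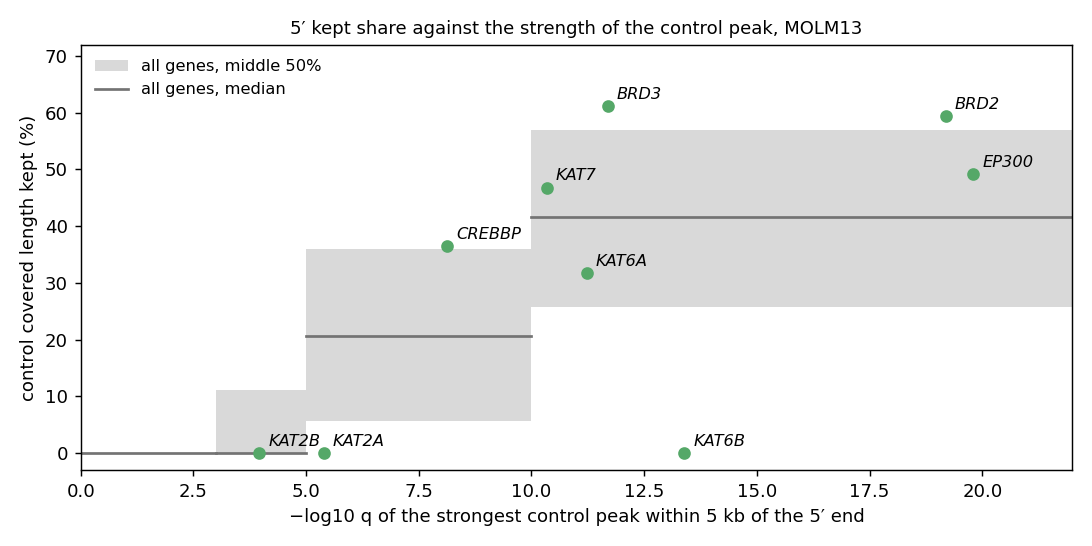
Percent of control covered length kept within 5 kb of the 5′ end against the −log10 q of the strongest control peak there. Green points are the 9 genes, grey bands the middle 50% of all protein-coding genes in each class of strength and lines their medians. BRD2 and BRD3 lie above the band of their class, and CREBBP lies just above that of its own (36.5% against 36.0%). KAT6B lies at 0% in a class where 97.1% of genes kept a position, placed there by a peak of 269 bp.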

How the data were processed

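ChIPmentation of H3K27Ac in MOLM13 gave 1 control library and 1 library after 16 h of SNDX-50469 at 500 nM. The input library of each condition was not analysed here. The submitters' processing notes name Trim Galore 0.6.5, Bowtie2 2.3.4.2, Picard 2.9.0, MACS2 2.1.2 and GRCh38, whereas the supplementary methods name TopHat2 and hg38. The options of the peak caller and whether the input entered it are not given in the sources used here. The authors deposited broad peaks in 1 list for each library, without pooling. A peak has a ratio deposited by the authors (fold over background averaged over the peak), a deposited −log10 p and a −log10 q, and a score that the deposited lists hold as 10 times the −log10 q, which was not used.

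Fold and −log10 values are relative to each library's own background and were used to describe and rank peaks within a list. As limits they were also set across the lists, as an equal −log10 q in both or the smallest treated −log10 p applied to control. Such limits need not mean the same signal in both libraries. Gene bounds and start sites were taken from RefSeq GRCh38.p14. Strand came from the RefSeq promoter table or, for 3823 genes, by symbol, in GENCODE for GRCh37, used for strand alone. The 5′ end is the outermost annotated end, the 5′ part reaches 5 kb to each side, and the rest is the gene and 5 kb on both sides without that part. Peaks were compared by position, with at least 1 bp shared. Promoters were available for 8 of the 9 genes. All 9 were named. From the other lists of acetylation genes, those with the shortest and longest control coverage were named, with any keeping over 50% over gene and flanks. The gene with the highest 5′ kept share of each list was named too. Genes and lists were chosen with earlier results of these data known. Python 3.11.15 with numpy 2.4.6, pandas 2.3.3, scipy 1.17.1 and matplotlib 3.10.9 was used, and the interval arithmetic was checked on simulated data. No test between conditions was possible. The value of 1 further marker gene is not reported here.

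Alternatives were an equal −log10 q in both lists, a control list held to the limit of the treated list or to its length, leaving out KAT6A, other window sizes, every annotated start and counting peaks in place of bases.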

Additional observations from a re-analysis of the deposited data

How the results depend on the processing

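The kept share near the 5′ ends was 36.5%. It was 31.4% at −log10 q of at least 5 in both lists, 45.0% with control peaks held to the lowest −log10 p among SNDX-50469 peaks, 64.2% with the control list shortened to equal length, 37.3% without KAT6A, 63.2% with 1 kb on each side, 33.8% around every annotated start, and 29.0% or 16.1% counted over control peaks with any overlap along the peak or with at least 50% of its length covered. Counting only overlaps inside the same part, chosen after seeing the data, gave 25.8% and, over the rest, 2.93%. Over the rest it was 0.991%, and under the same list changes 0%, 1.20%, 0% and 0.340%, then 5.98% with 1 kb, 3.41% over control peaks with any overlap, 1.08% with no flank and 2.12% with 20 kb. The summed kept share over all protein-coding genes was not recomputed under any alternative. Genes below 50% of control numbered 9 of 9, 6 of 8 at −log10 q of at least 5, 5 of 9 with control held to the same smallest −log10 p and 1 of 7 at equal length. Single genes were on the same side of 50% in 38 of 50 recomputations, went above 50% in 9 and above 100% in 3: EP300 was at 128% at −log10 q of at least 5 and at 128% with equal length, and KAT6A at 132% with equal length. At EP300 both settings left out the control peak of 1424 bp that shared 215 bp with the treated peak. The 38 include 8 made by leaving out KAT6A, which cannot change the value of another gene. Of the 5572 bp after treatment at KAT6A, 3072 bp lay outside the control peaks of the full list. At equal length no control peak was left at KAT2A and KAT2B, and at −log10 q of at least 5 none at KAT2B. The share near the 5′ ends exceeded that over the rest under every alternative run. At −log10 q of at least 5 and at equal length, the rest held only 1149 bp of control, all in the BRD2 peak that extends from the 5′ part. The 0% under these settings describes that peak alone. No paired analysis was possible because the labels give 1 library per condition. Differences between the libraries in depth and in antibody yield were not tested.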

Other observations

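Other genes of histone acetylation, from lists chosen with earlier results of these data known, gave the following values. Among 13 other bromodomain and YEATS readers, 11 had control peaks near the 5′ end, 9 of them kept a position, and 35.6% of the summed 5′ length was kept. BRDT, a testis reader, had 0 bp of control peaks, and MLLT1, a YEATS reader, had the longest control coverage over gene and flanks, 46545 bp. Of 10 other acetyltransferases, 9 kept a 5′ position and 23.5% of the length. NCOA1 had the shortest control coverage, 448 bp, and NCOA2, which lies on chromosome 8, the longest, 176845 bp. Of 26 subunits of acetyltransferase complexes, 25 had 5′ control peaks, 19 kept a position and 26.5% of the length was kept. JADE3 had 0 bp and SUPT3H 29927 bp in control. Of 16 genes listed as histone deacetylases, 15 had 5′ control peaks, 6 of these kept a position, and 13.1% of the length was kept. HDAC11 had the shortest control coverage, 824 bp, and HDAC4 the longest, 145155 bp, of which 4.73% was kept. No gene of these lists kept over 50% of its control length over gene and flanks. Near the 5′ end some genes of each list did. The highest 5′ kept shares, in the order of the lists, were 66.1% at TAF1, 58.3% at CLOCK, 84.2% at JADE1 and 62.4% at HDAC4. The 5′ kept shares of BRD2 and BRD3, 59.4% and 61.1%, were therefore not particular to them. For comparison, 50.8% of all genes with a 5′ control peak kept a position there and 20.4% of the summed 5′ length was kept. These lists were described and not tested.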
